A study of Homo sapiens with 18 samples.

Results

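A list of 42 genes that act in mitosis and in the spindle checkpoint was described in PANC-1 cells, an established line from a ductal carcinoma of the pancreas, with and without knockdown of NAT10. The members were chosen by name and matched by symbol to Ensembl identifiers, and all 42 were found among the 58302 genes of the RNA-seq table. In mitosis, CDK1 bound to cyclins drives entry, condensin and topoisomerase II shape the chromosomes, and kinetochores built on the centromere attach them to the spindle. The spindle checkpoint holds back the anaphase-promoting complex until every kinetochore is attached, after which separase cuts cohesin and the cell divides. RNA of most of these genes is made in late S phase, G2 and mitosis, so in a dividing line their summed level follows both the share of cells in those phases and the RNA per cell, which bulk RNA cannot tell apart.

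The study compared PANC-1 cells that carried a stable lentiviral control (shCtrl) with PANC-1 cells that carried a stable lentiviral shRNA against NAT10 (shNAT10). NAT10 is the acetyltransferase that writes N4-acetylcytidine (ac4C) on RNA. The labels call the control an empty shRNA vector, whereas the study's methods list a non-targeting shRNA, and the sources used here do not say which NAT10 shRNA the sequenced cells carried. No drug or other treatment is named for either group, and no source says that the 3 replicates of a group came from separate cultures, so p-values measure only the spread between these libraries. RNA-seq gave 3 libraries per group, as FPKM (reads divided by gene length and scaled to the reads of the library). An immunoprecipitation with an antibody against ac4C (acRIP-seq) gave 1 deposited peak list per group.

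The libraries held 15831686 to 23521710 reads, and the 42 members had between 201 and 12083 reads each in every library. NAT10 was at 31.6, 27.7 and 28.6 FPKM in the shCtrl libraries and at 7.92, 8.43 and 7.90 FPKM in the shNAT10 libraries, a log2 fold change of -1.84 ± 0.076 (SE; limma adjusted p = 3.85e-05). The 6 epithelial markers KRT8, KRT18, KRT19, KRT7, EPCAM and CDH1 were above 1 FPKM in every library. Of 12 markers of other cells (among them PTPRC, CD3E, CD68, PECAM1, VWF, COL1A1, DCN, ALB, INS, PRSS1 and MYH7), 11 were under 1 FPKM in every library, and the summed level of the list, nearly all of it COL1A1, was 28.9 to 34.0 FPKM in shCtrl and 17.3 to 20.9 FPKM in shNAT10. CD3E, INS and MYH7 were at 0 in every library. The library shCtrl replicate 2 stood apart from the other shCtrl libraries by transcript length, as described with its values further on, and counts of members called are given with and without it.

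More of the mitosis genes were higher than lower after NAT10 knockdown. In a limma fit over the 12982 genes with at least 1 FPKM in at least 3 libraries, 26 of the 42 members were higher in shNAT10 and 1 was lower (CENPH) at a Benjamini-Hochberg adjusted p under 0.05, and 15 were not called. Of all tested genes 20.8% were called higher and 21.2% lower. The median log2 fold change of the members was 0.43 (quartiles 0.17 and 0.64), beside -0.01 over all tested genes (quartiles -0.31 and 0.30). Most of the changes were under 2-fold. A log2 fold change over 1 was passed by 5 members, BIRC5, HMMR, CENPF, NCAPD2 and INCENP, where 2.91% of all tested genes did so in the same direction, and by no member in the lower direction, where 3.57% of all tested genes did, CENPH having the lowest value at -0.76. All 3 shNAT10 libraries lay above all 3 shCtrl libraries in 33 members and below them in 2, beside 27.9% and 28.6% of all tested genes. For these 35 members the exact two-sided permutation test gave p = 0.1, the smallest value that 3 against 3 libraries allow. Without shCtrl replicate 2, 33 members were called higher and 1 lower, beside 25.4% of all tested genes called higher. In that fit 4 members passed a log2 fold change over 1. Over 16 alternative settings the log2 fold change of INCENP ran from 0.92 to 1.22 and that of CENPF from 0.99 to 1.37.

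**Figure D1:**
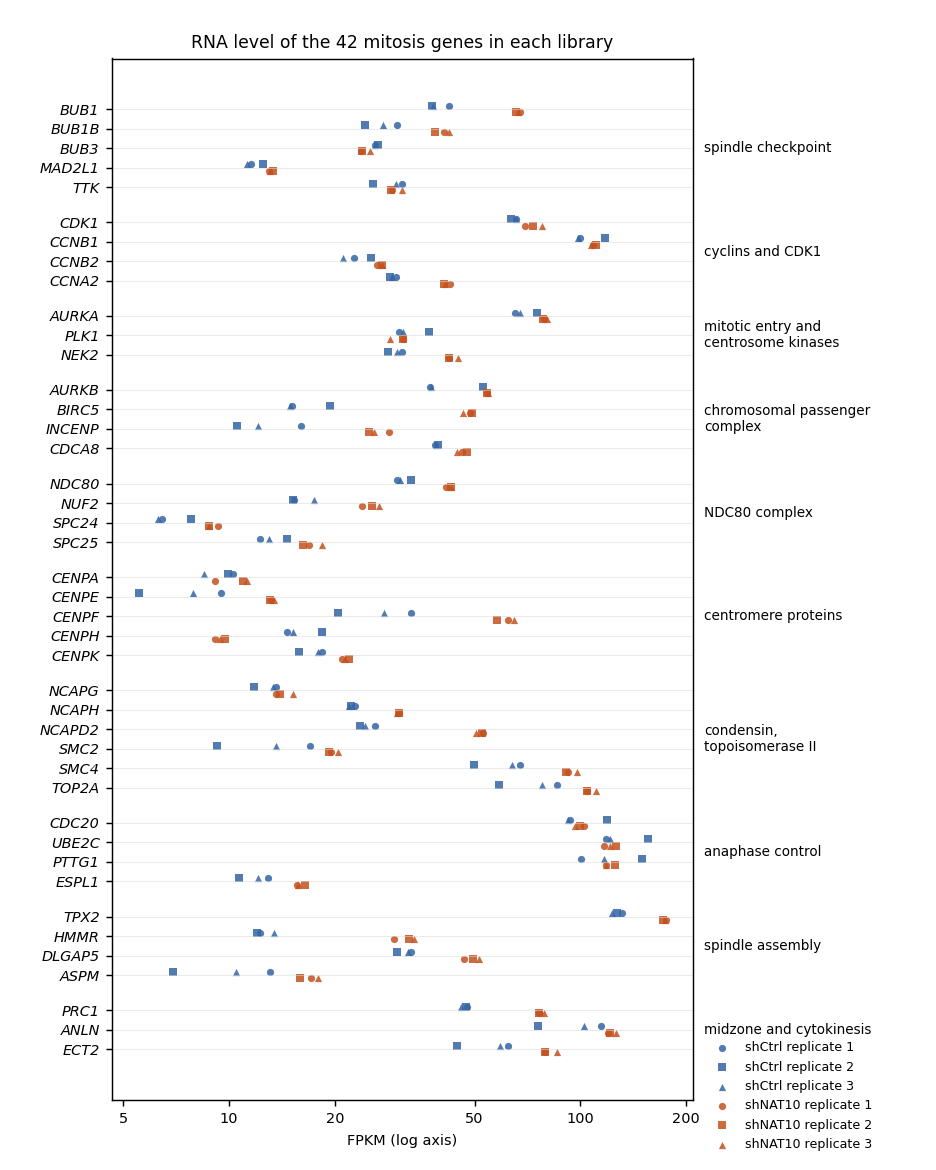
Level of each of the 42 mitosis genes in FPKM (log axis) in the 3 shCtrl libraries (blue) and the 3 shNAT10 libraries (orange), grouped by role, with a marker shape for each replicate number. The shNAT10 points lie to the right of the shCtrl points in 33 genes and to the left in BUB3 and CENPH, and the blue square of shCtrl replicate 2 often lies apart from the other blue points.

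**Figure D2:**
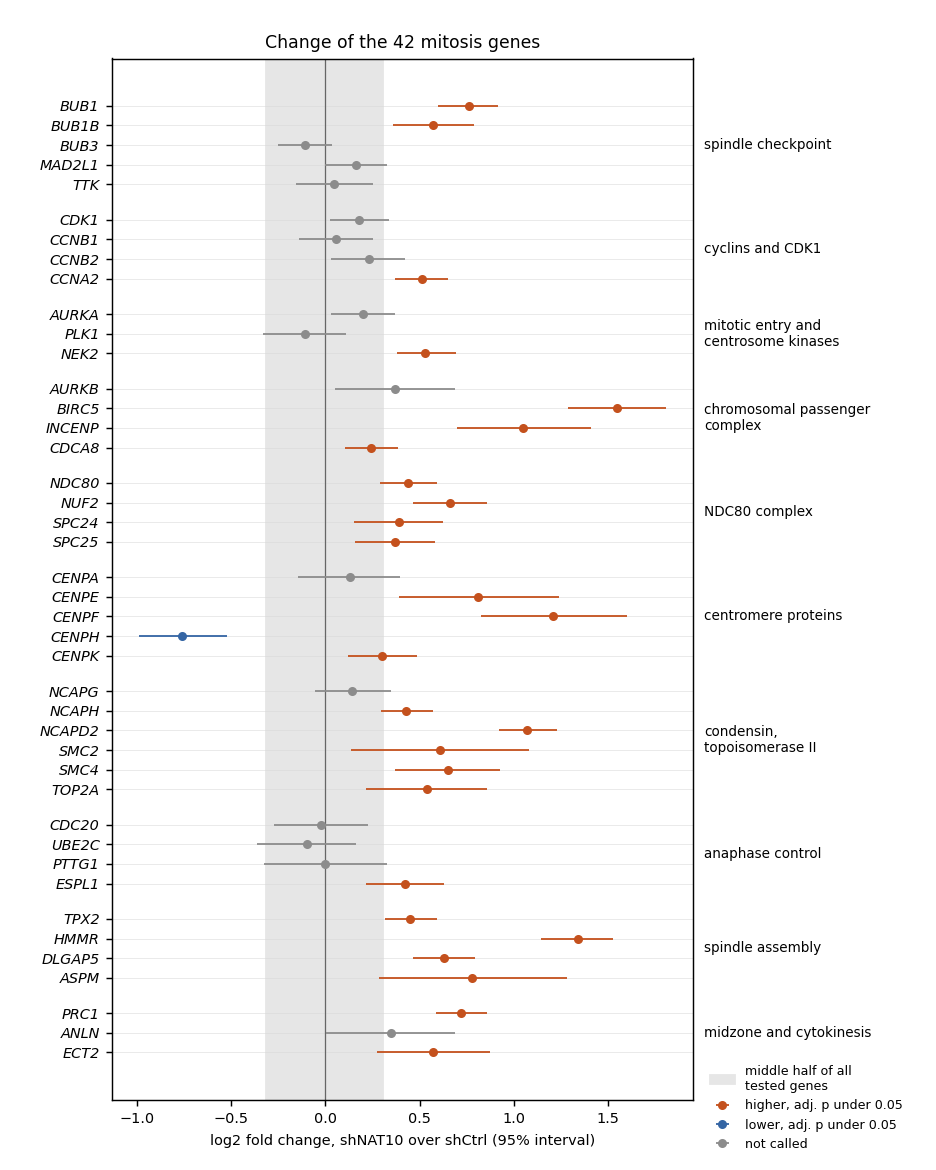
Log2 fold change of each mitosis gene, shNAT10 over shCtrl, with its 95% interval from limma, coloured by call at an adjusted p under 0.05. The grey band runs from the lower to the upper quartile of all 12982 tested genes, -0.31 to 0.30. BIRC5 lies farthest to the right at 1.55 and CENPH farthest to the left at -0.76.

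Many mitotic genes share a cell cycle homology region (CHR), a short promoter element. It is bound by the DREAM complex or by MuvB together with MYBL2 or FOXM1, often with CCAAT boxes bound by NF-Y. Promoter windows of 300 bases (250 before to 50 after the start, RefSeq, GRCh38.p14) were at hand for 35 of the 42 members and not used here for AURKA, BIRC5, BUB3, CENPH, TPX2, TTK and UBE2C. The letters TTTGAA or TTCGAA of the CHR, on either strand, were found in 26 of 35 windows (74.3%), beside 16.4% of 35116 windows of all genes. CCAAT, on either strand, was found in 27 of 35 windows (77.1%), beside 34.6% of all windows, and both motifs were found in 19 (54.3%), beside 6.38%. The E2F letters TTTCGCGC or TTTGGCGC, on either strand, were found in 1 member window (2.86%, CDK1), beside 1.15% of all windows. The CHR and CCAAT letters can share a base, as in the window of CDCA8, and a match describes letters, not a bound site. The 30 bases around the CHR nearest to the start are shown, in the direction of the gene, for the 4 members past 2-fold that had a window and for 4 members that were not called, picked after their values were seen, with the CHR letters in capitals.
HMMR (chr5:163460598-163460627, plus strand): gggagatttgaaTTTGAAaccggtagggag
CENPF (chr1:214603215-214603244, plus strand): ccggtggcggctgcgggcagTTTGAAttag
NCAPD2 (chr12:6493945-6493974, plus strand): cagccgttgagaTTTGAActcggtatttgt
INCENP (chr11:62123989-62124018, plus strand): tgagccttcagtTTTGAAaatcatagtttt
PLK1 (chr16:23678848-23678877, plus strand): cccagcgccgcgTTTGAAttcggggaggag
CDC20 (chr1:43358904-43358933, plus strand): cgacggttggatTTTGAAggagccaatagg
CCNB2 (chr15:59105105-59105134, plus strand): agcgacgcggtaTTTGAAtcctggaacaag
CDK1 (chr10:60778158-60778187, plus strand): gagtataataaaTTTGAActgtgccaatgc
The motif lay at -22 in HMMR, 41 in CENPF, -145 in NCAPD2, -10 in INCENP, -29 in PLK1, -65 in CDC20, -29 in CCNB2 and -161 in CDK1, counted to its first base from the start, which is base 1. Of the 26 members with CHR letters 18 were called higher, and of the 9 members with a window but without them 6 were. Of all tested genes 20.8% were called higher. The share called higher among all genes with or without the letters was not computed. The counts by motif are small and were not tested. The letters were present in genes that rose and in genes that were not called.

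Among the 5 spindle checkpoint genes, BUB1 and BUB1B rose and BUB3, MAD2L1 and TTK were not called. BUB1 (ENSG00000169679, chr2:110637698-110678114, minus strand, GRCh38) is the kinase that brings the checkpoint to kinetochores. In the order of replicates 1 to 3, BUB1 was at 42.3, 37.8 and 38.0 FPKM in shCtrl and at 67.2, 65.7 and 66.5 FPKM in shNAT10. The groups did not overlap, and the log2 fold change was 0.76 ± 0.068 (SE, limma adjusted p = 0.000319). BUB1B (ENSG00000156970, chr15:40161023-40221136, plus strand), which encodes BUBR1 of the mitotic checkpoint complex, was at 30.1, 24.4 and 27.5 FPKM in shCtrl and at 40.9, 38.6 and 42.4 FPKM in shNAT10. The groups did not overlap (log2 fold change 0.57 ± 0.091, limma adjusted p = 0.00291), although 10.2% of the exon bases of BUB1B are shared with another gene on the same strand. MAD2L1, the MAD2 subunit that binds CDC20, was at 11.6, 12.5 and 11.2 FPKM in shCtrl and at 13.0, 13.4 and 13.1 FPKM in shNAT10 (0.16 ± 0.070, limma adjusted p = 0.103). TTK, the kinase MPS1 that starts checkpoint signalling, was at 31.0, 25.8 and 29.8 FPKM in shCtrl and at 29.2, 28.9 and 31.1 FPKM in shNAT10, with overlapping groups (0.046 ± 0.086, limma adjusted p = 0.695). BUB3, which recruits BUB1 and BUBR1, was at 26.0, 26.5 and 26.1 FPKM in shCtrl and at 23.8, 23.9 and 25.3 FPKM in shNAT10. The shNAT10 libraries of BUB3 were all lower, yet the difference was not called (log2 fold change -0.11 ± 0.061, 95% interval -0.25 to 0.04, limma adjusted p = 0.197). Without shCtrl replicate 2, MAD2L1 was called as well (limma adjusted p = 0.0176).

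Of the genes that drive entry into mitosis, CCNA2 and NEK2 rose, while CDK1, the B-type cyclins, AURKA and PLK1 were not called. CCNA2 (chr4:121816444-121823933, minus strand), the A-type cyclin of S phase and G2, was at 29.8, 28.7 and 29.02 FPKM in shCtrl and at 42.7, 41.0 and 41.1 FPKM in shNAT10. The log2 fold change of CCNA2 was 0.51 ± 0.059 (limma adjusted p = 0.00083), with no overlap of the groups. CDK1, the kinase of the mitotic cyclins, was at 65.8, 63.4 and 65.5 FPKM in shCtrl and at 69.4, 73.5 and 78.0 FPKM in shNAT10. CCNB1, the main mitotic cyclin, was at 99.8, 118 and 98.4 FPKM in shCtrl and at 109, 111 and 107 FPKM in shNAT10, inside the range of the control libraries. CCNB2 was at 22.7, 25.4 and 21.1 FPKM in shCtrl and at 26.3, 27.2 and 27.3 FPKM in shNAT10. The log2 fold changes were 0.18 ± 0.067 for CDK1, 0.054 ± 0.083 for CCNB1 and 0.23 ± 0.083 for CCNB2 (limma adjusted p = 0.0659, 0.632 and 0.0637). NEK2, a centrosome kinase, was at 31.1, 28.3 and 30.03 FPKM in shCtrl and at 42.4, 42.3 and 45.0 FPKM in shNAT10 (0.53 ± 0.067, limma adjusted p = 0.00108). AURKA, the Aurora kinase of the centrosome and spindle, was at 65.1, 75.2 and 67.2 FPKM in shCtrl and at 78.8, 78.4 and 80.6 FPKM in shNAT10 (0.20 ± 0.073, limma adjusted p = 0.0636). PLK1, the Polo kinase of mitotic entry, was at 30.5, 37.1 and 31.2 FPKM in shCtrl and at 31.4, 31.2 and 28.6 FPKM in shNAT10. The groups of PLK1 overlapped (-0.11 ± 0.092, 95% interval -0.33 to 0.11, limma adjusted p = 0.368). AURKA, CCNB1, CCNB2 and CDK1 were called higher without shCtrl replicate 2 (limma adjusted p = 0.00202, 0.028, 0.0032 and 0.0464), whereas PLK1 was called in 0 of 16 alternative settings.

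The chromosomal passenger complex places Aurora B at centromeres, where it corrects wrong attachments, and 3 of its 4 genes rose. BIRC5 (ENSG00000089685, chr17:78214186-78225636, plus strand), which encodes survivin, changed most of all members. It was at 15.1, 19.4 and 14.9 FPKM in shCtrl and at 48.6, 49.1 and 46.4 FPKM in shNAT10, a 2.93-fold increase (log2 fold change 1.55 ± 0.11, limma adjusted p = 0.000147). INCENP (ENSG00000149503, chr11:62123973-62153163, plus strand), the scaffold of the complex, was at 16.04, 10.5 and 12.1 FPKM in shCtrl and at 28.5, 25.04 and 25.9 FPKM in shNAT10 (1.05 ± 0.15, limma adjusted p = 0.00194). For both genes the lowest shNAT10 library was above the highest shCtrl library. CDCA8, which encodes borealin, was at 38.5, 39.3 and 38.7 FPKM in shCtrl and at 46.0, 47.5 and 44.5 FPKM in shNAT10 (0.24 ± 0.059, limma adjusted p = 0.0161). AURKB, the kinase itself, was at 37.3, 52.8 and 37.7 FPKM in shCtrl and at 54.2, 54.3 and 54.5 FPKM in shNAT10. The value of AURKB in shCtrl replicate 2 was close to the shNAT10 libraries and the difference was not called (0.37 ± 0.14, limma adjusted p = 0.0637), while without that library it was called at a log2 fold change of 0.53 (limma adjusted p = 7.19e-05). The CDCA8 call was lost without shCtrl replicate 3, shNAT10 replicate 1 or shNAT10 replicate 2 (limma adjusted p = 0.0633, 0.0654 and 0.0842).

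All 4 genes of the NDC80 complex, the part of the outer kinetochore that grips microtubules, rose. NDC80 (chr18:2571511-2616635, plus strand) was at 30.1, 32.9 and 30.7 FPKM in shCtrl and at 41.4, 42.8 and 43.0 FPKM in shNAT10 (log2 fold change 0.44 ± 0.064, limma adjusted p = 0.00201). NUF2, its partner, was at 15.3, 15.2 and 17.5 FPKM in shCtrl and at 23.9, 25.5 and 26.7 FPKM in shNAT10 (0.66 ± 0.083, limma adjusted p = 0.0011). The other two subunits form the end of the complex that faces the centromere. SPC24 was the least abundant member, at 6.45, 7.79 and 6.26 FPKM in shCtrl and 9.30, 8.76 and 8.77 FPKM in shNAT10 (0.39 ± 0.0998, limma adjusted p = 0.0191). SPC25 was at 12.3, 14.6 and 13.0 FPKM in shCtrl and at 16.9, 16.2 and 18.3 FPKM in shNAT10 (0.37 ± 0.090, limma adjusted p = 0.0162). In none of the 4 genes did the groups overlap. The call of SPC24 was lost without shCtrl replicate 3 or any of shNAT10 replicates 1, 2 and 3 (limma adjusted p up to 0.0745), and that of SPC25 without shCtrl replicate 3, shNAT10 replicate 1 or shNAT10 replicate 3 (limma adjusted p up to 0.0696).

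The centromere proteins moved in both directions. CENPF (ENSG00000117724, chr1:214603195-214664588, plus strand), a large kinetochore protein of G2 and mitosis, was at 33.0, 20.5 and 27.6 FPKM in shCtrl and at 62.2, 57.9 and 64.8 FPKM in shNAT10 (log2 fold change 1.21 ± 0.16, limma adjusted p = 0.00151). CENPE, the kinetochore motor that moves chromosomes to the equator, was at 9.48, 5.53 and 7.91 FPKM in shCtrl and at 13.1, 13.1 and 13.4 FPKM in shNAT10 (0.81 ± 0.18, limma adjusted p = 0.0111). CENPE and CENPF varied widely among the shCtrl libraries, with shCtrl replicate 2 lowest, and little among the shNAT10 libraries. CENPH (ENSG00000153044, chr5:69189548-69210357, plus strand), of the inner kinetochore, was at 14.6, 18.4 and 15.2 FPKM in shCtrl and at 9.14, 9.74 and 9.41 FPKM in shNAT10. It was the only member called lower, with no overlap of the groups (-0.76 ± 0.099, limma adjusted p = 0.00133), and it kept this call in 16 of 16 alternative settings. CENPK, which binds CENPH in the same subcomplex, was at 18.4, 15.8 and 17.9 FPKM in shCtrl and at 20.9, 21.9 and 21.4 FPKM in shNAT10 (0.30 ± 0.078, limma adjusted p = 0.0196). CENPA, the histone H3 variant that marks the centromere, was at 10.3, 9.90 and 8.46 FPKM in shCtrl and at 9.09, 10.98 and 11.3 FPKM in shNAT10, with overlapping groups (0.13 ± 0.11, 95% interval -0.14 to 0.40, limma adjusted p = 0.408). CENPA shares 7.0% of its exon bases with another gene on the same strand. The call of CENPK was lost without any of the shNAT10 replicates 1, 2 and 3 (limma adjusted p = 0.0589, 0.0808 and 0.0703).

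Condensin, which compacts chromosomes, and topoisomerase II, which untangles them, were higher in 5 of 6 genes. NCAPD2 (ENSG00000010292, chr12:6493356-6531955, plus strand), a HEAT-repeat subunit of condensin I, was at 26.0, 23.5 and 24.4 FPKM in shCtrl and at 52.8, 52.3 and 50.5 FPKM in shNAT10 (log2 fold change 1.07 ± 0.066, limma adjusted p = 8.58e-05). NCAPH, the kleisin subunit, was at 22.8, 22.3 and 21.96 FPKM in shCtrl and at 30.4, 30.4 and 30 FPKM in shNAT10 (0.43 ± 0.058, limma adjusted p = 0.00146). NCAPG, the other HEAT-repeat subunit, was at 13.6, 11.8 and 13.4 FPKM in shCtrl and at 13.6, 13.9 and 15.2 FPKM in shNAT10, with its groups close together (0.14 ± 0.085, 95% interval -0.06 to 0.35, limma adjusted p = 0.214). The values of these subunits thus ran from 0.14 to 1.07. The pair of ATPase subunits, SMC2 and SMC4, and TOP2A, the topoisomerase of dividing cells, had long transcripts and a low shCtrl replicate 2. SMC4 was at 67.5, 49.7 and 63.7 FPKM in shCtrl and at 92.3, 91.3 and 97.7 FPKM in shNAT10 (0.65 ± 0.12, limma adjusted p = 0.00496). SMC2 was at 16.97, 9.25 and 13.6 FPKM in shCtrl and at 19.5, 19.2 and 20.4 FPKM in shNAT10 (0.61 ± 0.20, limma adjusted p = 0.0459). TOP2A was at 86.1, 58.8 and 77.9 FPKM in shCtrl and at 104, 105 and 111 FPKM in shNAT10 (0.54 ± 0.14, limma adjusted p = 0.0185). The groups did not overlap in these 3 genes. SMC2 was at a log2 fold change of 0.37 without shCtrl replicate 2. It lost its call in 6 of 16 alternative settings, among them no filter on expression, no mean-variance trend and each single library left out other than shCtrl replicates 1 and 2 (limma adjusted p up to 0.124), and TOP2A lost it without any of the shNAT10 replicates (limma adjusted p up to 0.0683). Genes on the opposite strand cover 33.1% of the exon bases of NCAPG and 25.6% of those of SMC4, and no source states whether counting used the strand.

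With all libraries in the limma fit, 3 of the 4 genes that start anaphase were near 0 change. CDC20, the activator of the anaphase-promoting complex that the checkpoint blocks, was at 93.4, 119 and 92.5 FPKM in shCtrl and at 102, 99.6 and 96.5 FPKM in shNAT10. UBE2C, its ubiquitin-conjugating enzyme, was at 118, 155 and 121 FPKM in shCtrl and at 117, 127 and 122 FPKM in shNAT10. PTTG1, which encodes securin, the inhibitor of separase, was at 101, 149.9 and 117 FPKM in shCtrl and at 118, 126 and 118 FPKM in shNAT10. For all 3 the shNAT10 libraries lay inside the range of the shCtrl libraries, apart from the lowest UBE2C library, and shCtrl replicate 2 was the highest. Their log2 fold changes were -0.022 ± 0.11 for CDC20, -0.10 ± 0.11 for UBE2C and -0.0014 ± 0.14 for PTTG1, with 95% intervals of -0.27 to 0.23, -0.36 to 0.16 and -0.33 to 0.33, so changes of up to about this size are not excluded by these libraries. ESPL1 (chr12:53268299-53293643, plus strand), which encodes separase, was at 12.9, 10.6 and 12.1 FPKM in shCtrl and at 15.6, 16.4 and 15.7 FPKM in shNAT10. It rose with no overlap of the groups (0.42 ± 0.088, limma adjusted p = 0.00844). UBE2C, PTTG1 and CDC20 have short transcripts (914, 1070 and 1777 bases), and without shCtrl replicate 2 their log2 fold changes were 0.023, 0.15 and 0.10. After correction for transcript length and GC content CDC20 was called higher (0.16, limma adjusted p = 0.0101).

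All 4 genes of spindle assembly rose. HMMR (ENSG00000072571, chr5:163460203-163491945, plus strand), a spindle and centrosome protein that is also a hyaluronan receptor, was at 12.3, 12.01 and 13.4 FPKM in shCtrl and at 29.4, 32.5 and 33.7 FPKM in shNAT10. This was the second largest change among the members (log2 fold change 1.34 ± 0.081, limma adjusted p = 8.38e-05). TPX2, which activates Aurora A on the spindle, was the most abundant member, at 132, 127 and 123 FPKM in shCtrl and at 176, 172 and 174 FPKM in shNAT10 (0.45 ± 0.058, limma adjusted p = 0.00119). DLGAP5, which stabilizes microtubules near chromosomes, was at 32.9, 30 and 32.3 FPKM in shCtrl and at 46.5, 49.4 and 51.4 FPKM in shNAT10 (0.63 ± 0.070, limma adjusted p = 0.00072). ASPM, a spindle pole protein, was at 13.1, 6.94 and 10.4 FPKM in shCtrl and at 17.1, 15.9 and 17.9 FPKM in shNAT10 (0.78 ± 0.21, limma adjusted p = 0.0234). The groups did not overlap in any of the 4. ASPM has the longest transcript of the members (10887 bases), and its call was lost in 5 of 16 alternative settings, which were no filter on expression and each single library left out other than shCtrl replicates 1 and 2 (limma adjusted p up to 0.0772).

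Of the genes of the spindle midzone and cytokinesis, PRC1 and ECT2 rose and ANLN was not called. PRC1 (chr15:90966038-90995629, minus strand), which bundles microtubules between the separating chromosomes, was at 47.5, 47.2 and 45.7 FPKM in shCtrl and at 76.4, 76.4 and 78.7 FPKM in shNAT10 (log2 fold change 0.72 ± 0.057, limma adjusted p = 0.000214). GENCODE places another gene over 57.6% of the exon bases of PRC1 on the same strand, so its level is uncertain. ECT2, the exchange factor that turns on RhoA at the division plane, was at 62.3, 44.6 and 59.2 FPKM in shCtrl and at 79.5, 79.5 and 85.8 FPKM in shNAT10 (0.57 ± 0.13, limma adjusted p = 0.0114). ANLN, which encodes the cytokinetic scaffold anillin, was at 114.9, 75.9 and 103 FPKM in shCtrl and at 119.9, 121 and 127 FPKM in shNAT10. Its shNAT10 libraries were all above its shCtrl libraries but the difference was not called (0.35 ± 0.15, 95% interval 0.0036 to 0.69, limma adjusted p = 0.0951). ANLN was called without shCtrl replicate 1 (log2 fold change 0.47, limma adjusted p = 0.0243) and without shCtrl replicate 2 (0.17, limma adjusted p = 0.0402).

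The spread within the groups was unequal. The median standard deviation of the members' log2 values was 0.14 in shCtrl and 0.047 in shNAT10, beside 0.17 and 0.080 over all tested genes. Over the 42 members, the log2 difference of shCtrl replicate 2 from the other shCtrl libraries fell with the log2 length of the longest transcript (Pearson r = -0.76, Spearman rho = -0.71 across genes of the same libraries, which are not independent replicates). Over all tested genes with a known length, the difference of shCtrl replicate 2 fell as well, with a slope of -0.082 on log2 length. Among the 14 members with the longest transcripts (4135 to 10887 bases) its median difference was -0.42 and it was the lowest shCtrl library in 11. Among the 14 with the shortest (914 to 2248 bases) the median difference was 0.20 and it was the highest in 9. Lengths are those of the longest annotated transcript of any kind, which for PLK1 has 4135 bases, beside 2227 for its longest coding transcript. The difference between shNAT10 and shCtrl rose with length (r = 0.43, rho = 0.44), with a median log2 fold change of 0.56 and 9 called higher among the 14 longest, and of 0.19, 5 called higher and 1 called lower among the 14 shortest. This rise is not a separate observation, since shCtrl replicate 2 is part of the shCtrl mean. The correlation was not computed without that library. After transcript length and GC content had been corrected for within libraries, 32 members were called higher and 1 lower, beside 26.9% of all tested genes called higher. With this correction 4 members passed a log2 fold change over 1. Why that library differed was not tested.

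A wider list of mitosis genes also held more increases than decreases. Of 94 other genes 92 were tested, with 38 higher and 9 lower and a median log2 fold change of 0.25, beside 20.8% of all tested genes called higher and 21.2% called lower. Among 28 tested kinetochore and checkpoint genes 14 were higher and 1 was lower, led by ZW10 of the RZZ complex (6.47, 6.89 and 6.54 FPKM in shCtrl, 23.6, 23.7 and 24.4 FPKM in shNAT10, log2 fold change 1.83), the kinetochore protein SKA2 (1.22) and ZWINT (1.09). The gene that fell was CENPM (-0.75), at 10.9, 12.7 and 8.95 FPKM in shCtrl and at 5.29, 6.88 and 6.94 FPKM in shNAT10. Its product sits in the same inner kinetochore subcomplex as those of CENPH, which was lower, and CENPK, which was higher. CENPI of the same list as CENPM was higher (0.86, named after its value was seen). Of 16 genes of cohesin, condensin II and shugoshin 9 were higher and 0 lower in the limma fit (0 lower at an unadjusted p under 0.05 and 0 in voom on recovered reads). Of 23 tested genes of the spindle, centrosome and cytokinesis 12 were higher and 1 was lower, the augmin subunit HAUS2 (-0.51). MKI67, the proliferation marker Ki-67, was at 52.9, 30.03 and 40.9 FPKM in shCtrl and at 62.2, 57.2 and 64.2 FPKM in shNAT10 (0.60 ± 0.19, limma adjusted p = 0.0387), a call that 7 of 16 alternative settings did not keep, and its log2 fold change was 0.39 without shCtrl replicate 2. Of 11 genes that control CDK1, 3 were higher (CDC25A, CCNF, MASTL) and 3 lower (WEE1, PKMYT1, BORA). Of 14 genes of the anaphase-promoting complex and its partners, 0 were higher in the limma fit (0 at an unadjusted p under 0.05 and 0 in voom on recovered reads) and 4 were lower (28.6%, beside 21.2% of all tested genes), ANAPC2, ANAPC5, CDC27 and FZR1, with log2 fold changes of -0.39, -0.20, -0.45 and -0.36. Apart from PKMYT1 (-0.55), the genes of the last 2 groups are named after their values were seen.

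More of the transcription factors of the cell cycle were higher than lower. Of 19 tested, 10 were higher (52.6%) and 3 lower, with a median log2 fold change of 0.49. Of all tested genes 20.8% were called higher and 21.2% lower. MYBL2, which opens the transcription of mitotic genes, was at 31.2, 37.4 and 31.0 FPKM in shCtrl and at 55.4, 54.1 and 54.0 FPKM in shNAT10 (0.72 ± 0.087, limma adjusted p = 0.000968). FOXM1, which follows it in G2, was at 20.9, 21.6 and 19.96 FPKM in shCtrl and at 30.3, 29.1 and 28.5 FPKM in shNAT10 (0.49 ± 0.065, limma adjusted p = 0.00137). Both factors were higher in all 3 shNAT10 libraries. The largest increases were in RBL1, which encodes the repressor p107 (1.34), E2F8 (0.95) and E2F1 (0.90), and the decreases were in E2F2 (-0.41), NFYC (-0.33) and E2F4 (-0.28). These 3 calls were lost in 7, 5 and 10 of 16 alternative settings, among them no filter on expression and leaving out shCtrl replicate 3 or shNAT10 replicate 1 or 2, and E2F4 was at -0.17 with TPM and at -0.11 after length and GC correction. Of 44 genes of DNA replication 22 were higher (50%, beside 20.8% of all tested genes) and 4 lower, with a median of 0.26, so increases were not confined to mitosis. Among the rises there were RRM1 (0.85) and GINS2 (0.80). RRM2, the small subunit of ribonucleotide reductase whose large subunit is RRM1, was at 16.6, 18.3 and 16.9 FPKM in shCtrl and at 6.71, 7.96 and 7.75 FPKM in shNAT10 (-1.20 ± 0.089, limma adjusted p = 0.000167), with 20.2% of its exon bases shared with another gene on the same strand. The other genes that fell were ORC3 (-0.20, named after its value was seen), ORC4 (-0.48) and ORC5 (-0.39) of the origin recognition complex. CHR letters were found in 41.5% of the windows of the other mitosis genes and in 5.13% of those of the DNA replication genes, and E2F letters in 7.32% and 25.6%. CCAAT was found in 51.2% and 53.85% of these windows, beside 34.6% of all windows.

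In acRIP-seq, which has 1 peak list per group and thus no replicates, 23 members (54.8%) carried 36 peaks in shCtrl and 22 members (52.4%) carried 39 peaks in shNAT10. Of all tested genes 49.6% carried a peak in shCtrl and 47.7% in shNAT10, and of the tested protein-coding genes within the members' range of FPKM 64.9% and 63.2%. The members' shares lay between these backgrounds. A peak in both lists was found in 13 members (33.7% of all tested genes, 47.7% of the protein-coding genes), in shCtrl alone in 10, in shNAT10 alone in 9 and in neither in 10. Fold enrichment (IP over input) had a median of 14.3 for the member peaks in shCtrl and 12.6 in shNAT10, beside 49.3 and 45.2 for all peaks. The member peaks highest in fold enrichment were on CCNB2 in shCtrl (1920, in the 3′ UTR, chr15:59124926-59125045) and on BUB3 in shNAT10 (1070, in the 3′ UTR, chr10:123167201-123167381). The lowest p-value of a shNAT10 member peak was on another peak of BUB3 (log10 p of -873, fold enrichment 55.3), beside a log10 p of -201 for the peak of 1070. NCAPG had a peak of 612 in its 3′ UTR in shCtrl and of 306 in its CDS in shNAT10. The fold enrichment has no error in the deposited lists, so no peak was tested for a difference.

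Peaks rarely lay at the same place in both lists. Of the 36 shCtrl peaks on members 3 overlapped a shNAT10 peak by at least 1 base on the same strand (8.33%, 95% Wilson interval 2.88 to 21.8%), and 3 of the 39 shNAT10 peaks overlapped a shCtrl peak (7.69%, 2.65 to 20.3%), beside 25.6% and 27.4% of all peaks. Intervals cover counting error only. The overlaps were on BUB3 (61 bases of its 3′ UTR), SMC4 (150 bases) and TOP2A (31 bases), of which the last 2 lay in the CDS. Stretches of 30 bases from within the SMC4 and TOP2A overlaps are shown in the direction of the gene, since these are the coding stretches found in both groups.
SMC4 (chr3:160423565-160423594, plus strand): cttggatcaagccacaagagtagcatatca
TOP2A (chr17:40411661-40411690, minus strand): aggctttcagcaaattagctttgtcaacag
The fold enrichment was 3.12 in shCtrl and 2.14 in shNAT10 for SMC4, 5.35 and 9.11 for TOP2A, and 7.90 and 4.61 for BUB3, all below the median of all peaks. For BUB1, BUB1B, AURKA, CCNA2, CDC20, CENPE, CENPF, NCAPG, PRC1 and TPX2, which carried peaks in both lists, the peaks lay at different places.

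With each peak placed by its midpoint along the longest coding transcript, 23 of 33 member peaks lay in the CDS in shCtrl (69.7%, 95% Wilson interval 52.7 to 82.6%) and 26 of 36 in shNAT10 (72.2%, 56.0 to 84.2%), beside 57.2% and 57.3% of all placed peaks, values inside both intervals. ESPL1 carried 4 peaks in shCtrl (fold enrichment 26.7, 119, 306 and 67.5) and 0 in shNAT10, and these fall in the 3′ UTR of its longest coding transcript but in the CDS of its transcript with the longest CDS, with which the shCtrl share is 81.8% (65.6 to 91.4%). The share of all placed shCtrl peaks with that transcript is 62.5%, which lies below this interval. Repeats with a C at every 3 bases have been described under ac4C peaks, so CNN repeated 4 times in a row was searched on the sense strand. It was found in 10 of 36 member peaks in shCtrl (27.8%, 15.8 to 44.0%) and in 13 of 39 in shNAT10 (33.3%, 20.6 to 49.0%), beside 53.0% and 52.8% of all peaks. The median GC content of the member peaks was 39.5% and 41.8%, beside 48.0% and 47.9% of all peaks, both lower in the members. Examples from coding stretches are shown with the repeat in capitals, from shCtrl peaks for the first 4 genes and from shNAT10 peaks for the last 2.
BUB1B (chr15:40185249-40185278, plus strand): ctgatgaggCTTCTACAGCAGagttgtcta
AURKA (chr20:56386258-56386287, minus strand): aagagcaagCAGCCCCTGCCAtcggcacct
CCNA2 (chr4:121819396-121819425, minus strand): caatactttCTGCATCAGCAGcctgcaaac
CCNB1 (chr5:69177563-69177592, plus strand): atcagcactCTACCACAGCTGaattctgca
PLK1 (chr16:23689895-23689924, plus strand): agccgtgacCTACATCGACGAgaagcggga
NCAPG (chr4:17837279-17837308, plus strand): gaggatgttCAACTTCGACATtgcctaggc
The fold enrichments of these peaks were 18.5, 5.89, 20.1, 10.3, 7.65 and 306 in the order shown.

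Members called higher were found both with and without peaks. Of the 10 members with a peak in shCtrl alone (ASPM, CCNB1, CCNB2, ESPL1, HMMR, MAD2L1, NCAPD2, NCAPH, NEK2 and NUF2) 7 were called higher, with a median log2 fold change of 0.48 and none below 0. Of the 9 members with a peak in shNAT10 alone (ANLN, AURKB, BIRC5, CDCA8, CDK1, INCENP, NDC80, PLK1 and TTK) 4 were called higher, with a median of 0.35. Of the 13 members with peaks in both lists 9 were called higher (median 0.54), and of the 10 without a peak 6 were called higher and CENPH lower (median 0.34). Of all 42 members 26 were called higher (61.9%), beside 20.8% of all tested genes. The share called higher among all genes of each peak class was not computed. The counts by peak class are small and were not tested.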

How the data were processed

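RNA-seq (3 libraries per group) and acRIP-seq (3 IP and 3 input libraries per group) of PANC-1 cells were grouped by their labels. The 42 members and the other gene lists were chosen with earlier results of these data known. The authors counted reads per Ensembl gene and deposited FPKM values. The submitters' processing notes name HISAT2 2, HTSeq 0.11.0, DESeq2 1.22.2 and the build hg38 (GRCh38), without giving their roles. The peak caller is not given in the sources used here. The authors deposited 1 peak list per group, made from its replicates together, with a p-value and a fold enrichment of IP over input (a ratio) for each peak. The deposited lists also hold the log10 of the p-value and of the false discovery rate.

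FPKM times the length of the longest transcript (GENCODE 29) gave whole reads in 97.6 to 97.7% of values under 1000 reads (tolerance 0.05), which set the depths and fed voom in an alternative. Log2(FPKM + 0.1) of genes at 1 FPKM or more in at least 3 libraries was fitted with limma 3.58.1 in R 4.3.3 (mean-variance trend, Benjamini-Hochberg over 12982 genes); fold changes are on this scale, and a call is an adjusted p under 0.05. Genes named were all 42 members, NAT10, of the other lists the 3 highest and 3 lowest called log2 fold changes, all markers, and FOXM1, MYBL2 and MKI67, plus a few named after their values were seen, as marked; some single genes that this rule names are not reported here. On simulated data, 188 of 200 genes changed by 2 on the log2 scale were called among 12982 genes, with 13 false calls, and 0 genes were called with no change put in. The simulation gave both groups the same spread and shifted no single library by transcript length. Its change of 2 was larger than that of every member (1.55 at most, BIRC5). It therefore does not give the rates of missed or false calls for the members. Same-numbered libraries of the groups correlated in their deviations by -0.043, 0.064 and 0.11, so the numbers did not pair them.

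Peaks were matched to genes by the name in the lists and placed by midpoint along the longest coding transcript (GENCODE 29). Of all peaks, 13368 of 16892 in shCtrl and 12332 of 15813 in shNAT10 could be placed in this way. Inner block starts fell at an exon start of any annotated transcript of the gene in 99.8% of cases. That share checks the coordinates and not the choice of transcript. Promoter windows are from RefSeq (GRCh38.p14), and other sequences from GENCODE 29 transcripts. Correction for transcript length and GC content and the protein-coding background were chosen after seeing the data. Python 3.11.15, NumPy 2.4.6, pandas 2.3.3, SciPy 1.17.1 and matplotlib 3.10.9 were used.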

Additional observations from a re-analysis of the deposited data

How the results depend on the processing

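Of the 42 members, 26 were called higher and 1 lower in the main fit, with a pseudocount of 1, a minimum of 5 FPKM, median centring and voom on recovered reads. With the replicate number as a block, 26 were higher and 1 lower again, all 42 kept their side of the threshold, E2F2 and E2F4 lost their calls (limma adjusted p = 0.0504 and 0.0503), and 5127 of all tested genes were called in place of 5450. The count of members called ran from 20 to 34 as each library was left out, that of all tested genes from 3550 (without shNAT10 replicate 3) to 6621 (without shCtrl replicate 2), that of other mitosis genes from 30 (without shNAT10 replicate 1 or 3) to 60 (without shCtrl replicate 2), and that of DNA replication genes from 17 (without shNAT10 replicate 3) to 31 (without shCtrl replicate 2). With TPM the median log2 fold change of all tested genes moved from -0.01 to 0.10 and that of the members from 0.43 to 0.54, and 3355 of 5430 calls were higher (61.8%) in place of 2699 of 5450 (49.5%). Members near 0 changed sign: BUB3 was 0.00012 with TPM, TTK -0.033 without shCtrl replicate 2 and -0.001 after length and GC correction, and UBE2C 0.0063 with TPM and 0.023 without shCtrl replicate 2. CDC20 was 0.05 with quantile normalization, 0.086 with TPM, 0.10 without shCtrl replicate 2 and 0.16 after length and GC correction, where it was called (limma adjusted p = 0.0101). PTTG1 was 0.068, 0.11, 0.15 and 0.082 in the same 4 settings, and 0.013 and 0.014 without shNAT10 replicates 1 and 3. As each library was left out, CDC20 ran from -0.085 to 0.10, UBE2C from -0.17 to 0.023 and PTTG1 from -0.13 to 0.15. The cause was not tested. With the 50% of each peak list highest in fold enrichment, 6 members carried a peak in shCtrl and 6 in shNAT10, 0 had overlapping peaks, and the CDS share in shCtrl was 12.5% (1 of 8 peaks), or 50% (4 of 8) with the transcript with the longest CDS. In shNAT10 the CDS share was 71.4% (5 of 7) with either transcript, beside 52.0% and 56.7% of all placed peaks. With the 50% lowest in p-value, 14 and 11 members carried a peak and 0 had overlapping peaks. With a reciprocal overlap of 50%, 1 member had overlapping peaks. Low-depth limits are small here, since each member had at least 201 reads in every library, while the acRIP-seq lists give no depth.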

Other observations

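Of 6 epithelial markers 4 fell, 1 rose and 1 was not called. KRT8, a keratin of simple epithelia, was at 1556, 2009 and 1652 FPKM in shCtrl and at 819, 769 and 711 FPKM in shNAT10, a log2 fold change of -1.18 ± 0.11 (limma adjusted p = 0.000361). Its partner KRT18 (-0.84), KRT19 (-0.83) and KRT7 (-0.83) were lower as well, with no overlap of the groups. EPCAM, an epithelial cell adhesion molecule, was at 4.01, 5.04 and 5.55 FPKM in shCtrl and at 22.4, 24.2 and 21.1 FPKM in shNAT10 (2.20 ± 0.13, limma adjusted p = 6.9e-05). CDH1, which encodes E-cadherin, was not called (0.33 ± 0.15, limma adjusted p = 0.111). COL1A1, a collagen of mesenchymal cells, fell from 28.6, 34.0 and 30.7 FPKM to 20.8, 19.5 and 17.2 FPKM (-0.69 ± 0.098, limma adjusted p = 0.00182).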
